A study of Mus musculus with 9 samples.

Results

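Integrins and laminins, the receptor chains and matrix chains with which cells hold on to the basement membrane, were followed in C57BL/6 mouse hearts at 3 postnatal ages. The genes were taken by name. A gene counted if its symbol begins with Itga or Itgb followed by a digit or one letter, or with Lama, Lamb or Lamc followed by a digit, and if a probe set of the array carried that symbol alone. Of 19938 genes with such a probe set, 37 met this rule: 18 integrin alpha chains, 9 integrin beta chains, 5 laminin alpha chains, 3 laminin beta chains and 2 laminin gamma chains. Itgb3bp fits the letters of the rule, which would make 38, but it encodes a centromere protein and was not counted.

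Total RNA of heart, labelled as cardiac muscle, had been hybridised to Affymetrix Mouse Gene 1.0 ST arrays at 24 hours, 7 days and 10 weeks of age. There were 9 arrays, 3 for each age. The labels name the strain and the age and no other treatment or allele, and do not say whether the arrays of an age came from separate animals or from pools, so p-values measure the spread between these samples, which may be technical. The study's stated design was a direct comparison of the 3 ages. Below, the first step runs from 24-hour to 7-day hearts and the second from 7-day to 10-week hearts. These share the 7-day arrays, and the comparison of 10-week with 24-hour hearts shares its arrays with both. All values are log signals or differences of log signals, with the base taken as 2, so that a difference of 1 is a 2-fold change. Signals of different genes come from different probes and are not set against each other. No detection call accompanies the values, so a difference that reaches down to a dim signal can be too small. With 3 arrays per age, the number of arrays limits the precision.

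An integrin is a pair of one alpha and one beta chain that spans the membrane, binds matrix outside the cell and joins the actin cytoskeleton inside through talin, kindlin and vinculin. A laminin is a cross-shaped trimer of one alpha, one beta and one gamma chain, and laminins assemble into the sheet of the basement membrane. In heart muscle each myocyte is wrapped in such a sheet, and integrins with the beta1 chain, together with dystroglycan, tie the myocyte's costameres to it. The alpha7 chain is the laminin-binding partner of beta1 in striated muscle, and the alpha2 laminin chain is the main alpha chain around muscle fibres. The other cells of the heart carry their own sets, among them alpha4 and alpha5 laminins under endothelium, collagen-binding integrins on fibroblasts and beta2 integrins on leukocytes.

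Between 7 days and 10 weeks laminin chains moved in both directions. Lama2, Lama4, Lamb1 and Lamc1 dropped to between 2.05-fold and 2.73-fold lower signals, while Lamb2 and Lama5 rose by 0.33 and 0.48. Among the integrins the fibronectin receptor chain Itga5, the collagen receptor chain Itga2 and Itga8 fell most in that step, and the muscle chain Itga7 rose. Among the 37 genes the difference of largest size was a rise, that of Itgb6, which was 7.77-fold higher at 10 weeks than at 24 hours. Over the whole group, 3 of 37 genes were called higher and 1 lower in the first step, where calls took 10.1% of all 19938 genes, 5.27% higher and 4.81% lower. In the second step 9 were called higher and 15 lower, against 35.9% of all genes, 17.0% higher and 18.9% lower. From 24 hours to 10 weeks the counts were again 9 and 15, against 40.1% of all genes, 19.5% higher and 20.6% lower. A call means an adjusted p under 0.05 in limma's moderated test, with Benjamini-Hochberg adjustment over all genes. The median difference of the 37 genes was 0.02, -0.01 and -0.02 in the 3 comparisons, beside 0.00, 0.04 and 0.04 over all genes. At least 2-fold lower calls in the second step numbered 7 of 37, against 2.98% of all genes.

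**Figure D1:**
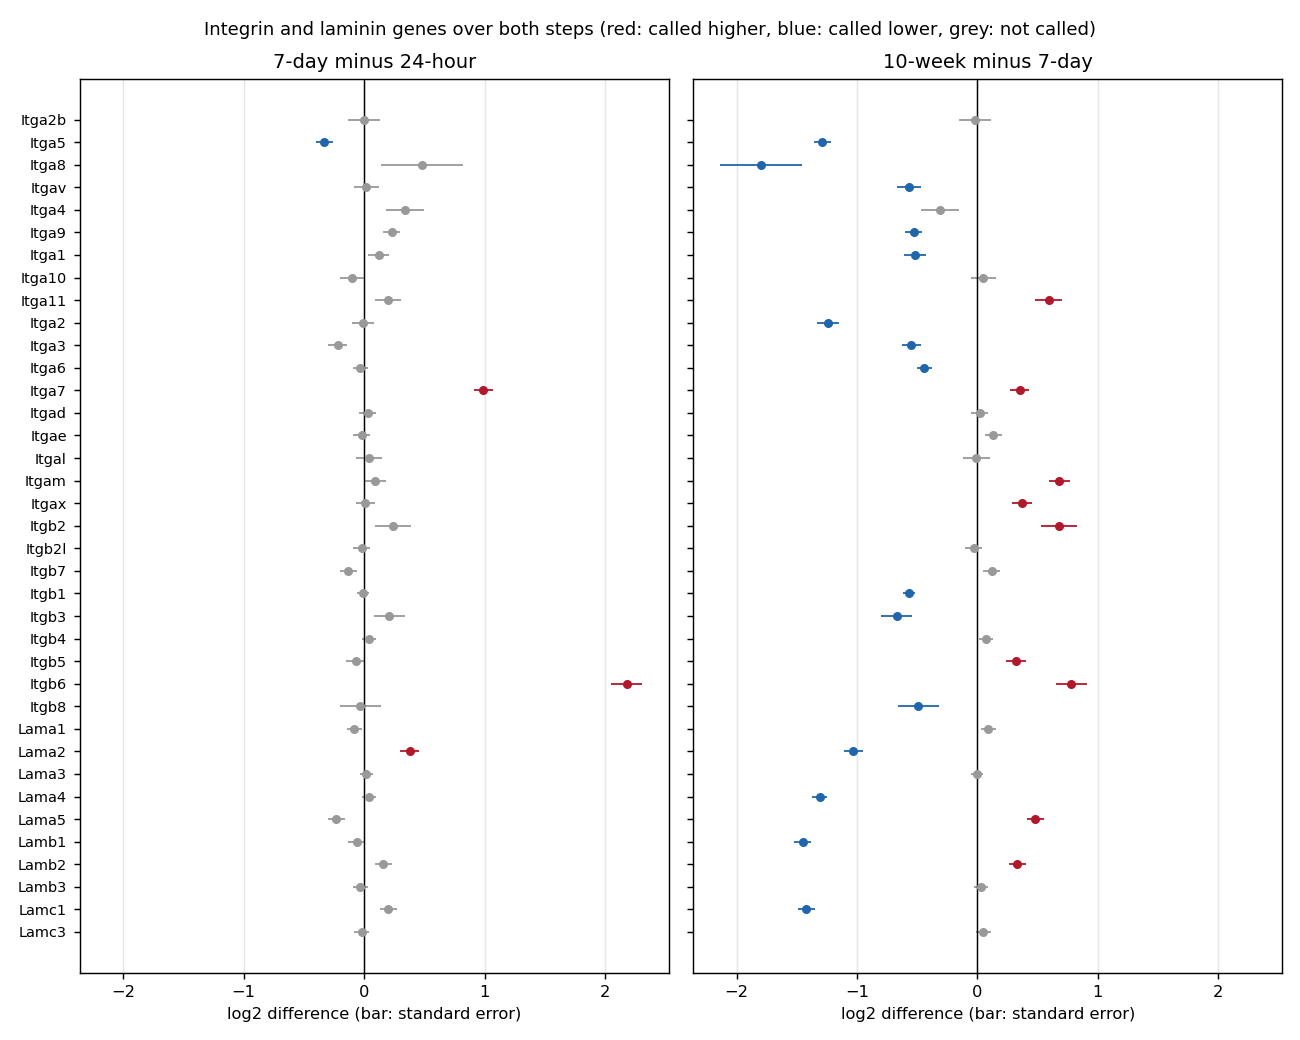
Log2 difference of each of the 37 integrin and laminin genes between 24-hour and 7-day hearts (left) and between 7-day and 10-week hearts (right), with the standard error from limma as a bar. Red points were called higher, blue points lower and grey points not called; 4 genes are coloured on the left and 24 on the right.

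The genes were also divided by signal. Of the 37 genes, 22 had a mean signal above 5.57, the median over all genes, and 15 at or below it. The 22 brighter genes held 5 higher and 14 lower calls of the second step, with a median difference of -0.54. Of all 9969 genes above that signal, 55.8% were called in that step, 22.8% higher and 32.9% lower. The 15 dimmer genes held 4 higher calls and 1 lower call, with a median difference of 0.05, where 11.1% of the 9969 genes at or below that signal were called higher and 4.96% lower.

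The 250 bases before the start of transcription were used for 24 of the 37 genes, from RefSeq on GRCm38.p6. Windows of the 37 genes were first filtered by chromosome, and the windows of all genes counted below were not. They are shown here for genes that moved in opposite directions: Lamb1, Lama2 and Itga5, lower at 10 weeks, and Lamb2 and Itgb6, higher. Each runs 5′ to 3′ on the strand of its gene, and capitals mark matches on either strand to the GC box GGGCGG, the CCAAT box CCAAT, the TATA box TATAAA, the M-CAT element CATTCC or the CArG box. The windows are chr12:31265043-31265292 (plus strand) for Lamb1, chr10:27616943-27617192 (minus) for Lama2, chr15:103366792-103367041 (minus) for Itga5, chr9:108479612-108479861 (plus) for Lamb2 and chr2:60722604-60722853 (minus), the farther upstream of its 2 listed starts, for Itgb6.
Lamb1: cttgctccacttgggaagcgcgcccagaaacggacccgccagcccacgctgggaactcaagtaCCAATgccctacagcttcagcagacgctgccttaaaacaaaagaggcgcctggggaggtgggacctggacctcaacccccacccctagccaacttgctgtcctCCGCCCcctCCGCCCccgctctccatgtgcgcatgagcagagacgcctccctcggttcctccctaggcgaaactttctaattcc
Lama2: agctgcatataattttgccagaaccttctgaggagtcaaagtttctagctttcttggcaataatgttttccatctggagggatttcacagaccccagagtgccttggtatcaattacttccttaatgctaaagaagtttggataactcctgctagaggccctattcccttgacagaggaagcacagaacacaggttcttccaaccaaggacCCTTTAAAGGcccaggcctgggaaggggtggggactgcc
Itga5: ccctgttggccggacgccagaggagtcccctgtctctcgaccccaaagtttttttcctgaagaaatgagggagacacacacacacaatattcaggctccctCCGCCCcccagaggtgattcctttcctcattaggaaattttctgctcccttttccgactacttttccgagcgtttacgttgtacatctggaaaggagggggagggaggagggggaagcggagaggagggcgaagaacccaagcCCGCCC
Lamb2: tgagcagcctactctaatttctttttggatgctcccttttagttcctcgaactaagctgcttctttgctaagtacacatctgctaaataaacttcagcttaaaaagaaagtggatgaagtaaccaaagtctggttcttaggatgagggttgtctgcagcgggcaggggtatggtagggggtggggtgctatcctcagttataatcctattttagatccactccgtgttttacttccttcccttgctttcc
Itgb6: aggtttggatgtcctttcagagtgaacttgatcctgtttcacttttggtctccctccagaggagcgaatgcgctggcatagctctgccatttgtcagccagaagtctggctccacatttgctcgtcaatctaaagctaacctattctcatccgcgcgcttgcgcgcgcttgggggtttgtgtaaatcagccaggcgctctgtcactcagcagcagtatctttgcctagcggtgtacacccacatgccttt
In Lamb1 the capitals mark 2 GC boxes and 1 CCAAT box, in Itga5 2 GC boxes and in Lama2 1 CArG box, while the windows printed for Lamb2 and Itgb6 hold no match to the 5 motifs. The window of the other Itgb6 start, not printed, holds 1 CArG box. Matches did not divide the genes by direction. Windows not printed include those of Lama5 and Itgb5, higher at 10 weeks, with 4 and 3 GC boxes. Those of Itga2 and Itga8, lower at 10 weeks, hold no match. Among all 32851 windows of this length in the table, 32.7% hold a GC box, 33.8% a CCAAT box, 12.4% a TATA box, 12.6% an M-CAT element and 1.47% a CArG box. Over the 27 windows of the 24 matched genes the numbers were 9, 4, none, 3 and 2. These are matches of letters, with no measurement of binding behind them.

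Lamb1, the beta chain of the common muscle and vessel laminins, had like signals at both young ages and fell at 10 weeks. It measured 9.58, 9.62 and 9.60 on the 24-hour arrays, 9.47, 9.58 and 9.58 on the 7-day arrays and 7.91, 8.19 and 8.18 on the 10-week arrays. The arrays of the young hearts overlapped and all 10-week arrays lay far below them. The drop from 7 days was 2.73-fold, a log2 difference of -1.45 ± 0.07 (SE, 3 against 3 arrays; limma adjusted p = 2.31e-07), and the first step gave -0.06 ± 0.07 (adjusted p = 0.77). Lamb2, the beta chain enriched at the neuromuscular junction, in the glomerulus and in mature basement membranes of vessels and muscle, went the other way. Its signals were 8.22, 8.14 and 8.14, then 8.19, 8.44 and 8.36, then 8.64, 8.76 and 8.59. Every 10-week array was above every younger one, and the rise of the second step was 0.33 ± 0.07 (limma adjusted p = 0.00466). The probe set of Lamb3, a chain of epithelial laminin, ranged from 5.26 to 5.36 over all 9 arrays.

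Lamc1, the gamma chain of nearly all heart laminins, measured 9.90, 9.90 and 9.94 at 24 hours, 10.03, 10.15 and 10.16 at 7 days and 8.64, 8.60 and 8.83 at 10 weeks. All 7-day arrays were above all 24-hour arrays, but the difference of 0.20 ± 0.07 did not pass the test (limma adjusted p = 0.0977). The later fall was 2.68-fold, or -1.42 ± 0.07 on the log2 scale (adjusted p = 1.11e-07). Lamc3, the other gamma chain measured, ranged from 5.50 to 5.64.

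Of the alpha chains, Lama2 was the one that rose and then fell. Its signals were 9.03, 8.94 and 8.94 at 24 hours, 9.21, 9.46 and 9.37 at 7 days and 8.23, 8.22 and 8.48 at 10 weeks, so the 3 ages did not overlap. The rise of the first step was 0.38 ± 0.08 (limma adjusted p = 0.0191) and the fall of the second -1.03 ± 0.08 (adjusted p = 5.44e-06). That the rise passed the test depended on several single arrays. Without 7-day replicate 2 it was 0.32 (limma adjusted p = 0.0673). Without 7-day replicate 3 or either of 24-hour replicates 2 and 3 it was 0.36 (limma adjusted p from 0.071 to 0.0769). With 7-day replicates 2 and 3 both left out, which leaves 1 array at that age, it was 0.24. A call higher in the first step and lower in the second was made for 1 of 37 genes, against 1.8% of all genes.

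Lama4, the alpha chain of endothelial and developing muscle basement membranes, measured 9.34, 9.31 and 9.31 at 24 hours, 9.24, 9.44 and 9.41 at 7 days and 8.02, 8.04 and 8.11 at 10 weeks. The young arrays overlapped, and the 10-week arrays were lower by 2.48-fold than the 7-day ones, with a log2 difference of -1.31 ± 0.06 (limma adjusted p = 1.08e-07). Lama5, the alpha chain of mature vessels and epithelia, measured 6.90 on each of the 24-hour arrays, 6.60, 6.74 and 6.68 at 7 days and 7.19, 7.26 and 7.01 at 10 weeks. It was lowest at 7 days, though the first step of -0.23 ± 0.07 did not pass (limma adjusted p = 0.0878), and the second step was a rise of 0.48 ± 0.07 (adjusted p = 0.000428). Against 24-hour hearts Lama5 was 0.26 higher at 10 weeks (limma adjusted p = 0.0172), a call that ended without 10-week replicate 1 (0.24, adjusted p = 0.0535) or without replicate 2 (0.20, adjusted p = 0.0587). Lama1, an early embryonic chain, and Lama3, an epithelial one, ranged from 4.37 to 4.60 and from 4.98 to 5.05.

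**Figure D2:**
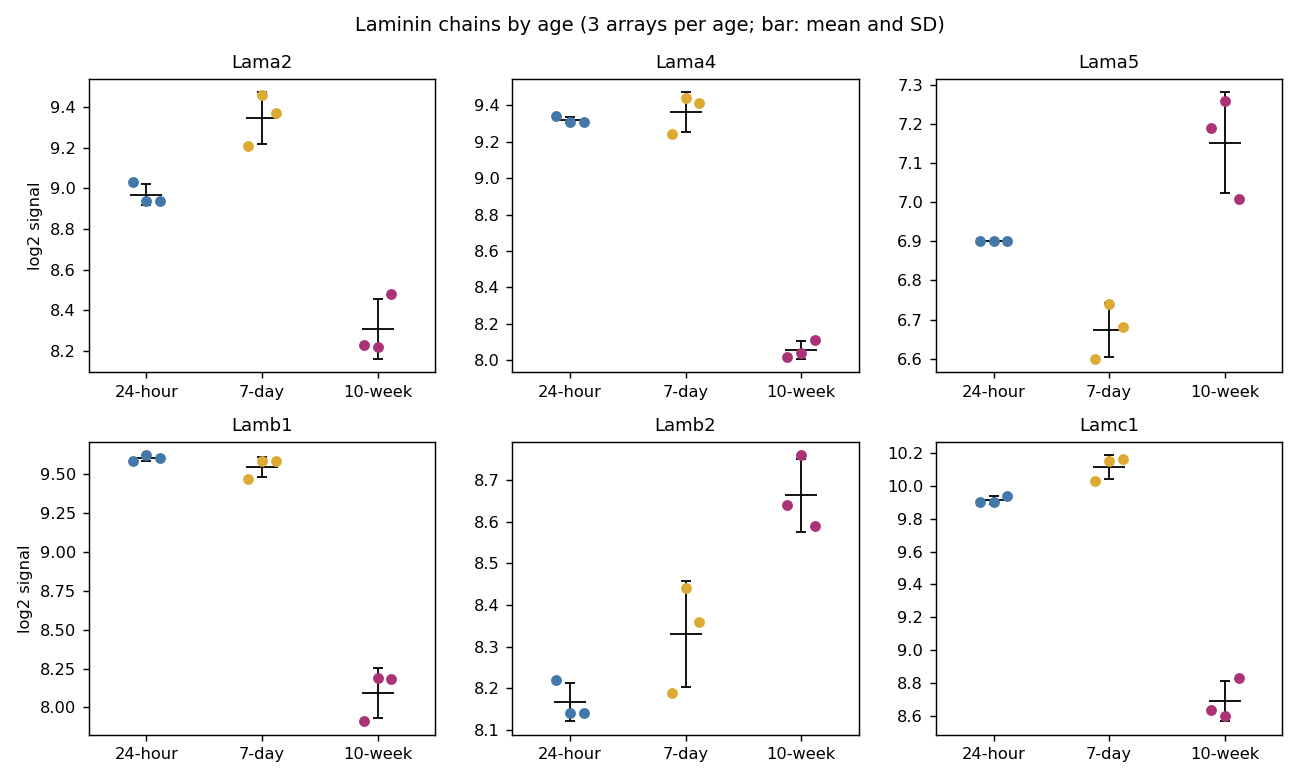
Log2 signal of 6 laminin chains on each array, by age, with the mean and SD of 3 arrays as black bars; the vertical axes differ between genes. Lama2, Lama4, Lamb1 and Lamc1 fall between 7 days and 10 weeks, while Lama5 and Lamb2 rise.

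Beside the laminins stand marker lists of heart cell types, in the second step. Of 10 cardiomyocyte markers 1 was higher and 1 lower, with sums of 15.99 to 16.06 at 7 days and 15.99 to 16.02 at 10 weeks. Most of these lie near the highest signal on the arrays, so differences in them can be too small. Of 10 fibroblast markers 8 were lower, and their summed signal went from 14.04 to 14.36 at 7 days to 13.06 to 13.27 at 10 weeks. Of 10 endothelial markers 5 were lower, with sums of 12.73 to 12.81 and then 12.48 to 12.59. Mural cell markers gave 1 higher and 4 lower calls of 10, with sums of 12.73 to 13.11 and then 12.30 to 12.49, and all 8 epicardial markers were lower, with sums of 10.21 to 10.53 and then 8.74 to 8.99. The part of these lists in the laminin differences was not tested. In whole-heart RNA, fewer cells of a type and less RNA per cell cannot be told apart.

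The integrin alpha chains that bind laminin split in the second step. Itga7, the laminin receptor chain of striated muscle, measured 6.30, 6.23 and 6.45 at 24 hours, 7.28, 7.30 and 7.39 at 7 days and 7.73, 7.54 and 7.74 at 10 weeks. Each age lay wholly above the one before it. The first step was a rise of 1.99-fold, 0.99 ± 0.08 on the log2 scale (limma adjusted p = 4.65e-05), and the second a rise of 0.35 ± 0.08 (adjusted p = 0.00521). With only replicate 1 of the 7-day arrays kept, the second step was 0.39, not smaller, and no longer passed with 1 array at that age. Itga3 and Itga6, laminin receptor chains of epithelia, vessels and other cells, fell. Itga3 had means of 6.31 ± 0.06, 6.09 ± 0.13 and 5.54 ± 0.07 (SD, n = 3 arrays per age) and Itga6 of 8.35 ± 0.06, 8.33 ± 0.08 and 7.89 ± 0.08. Their second-step differences were -0.55 ± 0.08 and -0.44 ± 0.06 (SE; limma adjusted p = 0.000253 and 0.000323).

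Itgb1, the beta chain that pairs with all 3 of these alpha chains and with most others, fell in the second step. Its signals were 10.83, 10.84 and 10.81, then 10.78, 10.82 and 10.84, then 10.18, 10.20 and 10.34. The 6 young arrays lay within 0.06 of each other and the 10-week arrays below them, a fall of 1.49-fold or -0.57 ± 0.05 (limma adjusted p = 9.69e-06). Itga7 and Itgb1 were thus called in opposite directions in the second step.

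Itgb6 pairs with the alphav chain, is best known from epithelia and activates latent TGF-beta. It measured 4.16, 4.38 and 4.50 at 24 hours, 6.42, 6.46 and 6.70 at 7 days and 7.32, 7.06 and 7.52 at 10 weeks. The ages did not overlap, and the 24-hour signals lay below the median of all genes, so the first rise can be understated. That rise was 2.18 ± 0.13, 4.54-fold (limma adjusted p = 1.17e-05), and a further 0.78 ± 0.13, 1.71-fold, came in the second step (adjusted p = 0.00079). Higher calls in both steps were made for Itga7 and Itgb6, 2 of 37 genes, against 2.03% of all genes. The 8 epithelial markers measured had first-step differences from -0.13 to 0.35, and their summed signal was 7.75 to 8.24 at 24 hours, 7.75 to 8.37 at 7 days and 7.58 to 7.76 at 10 weeks. The 0.35 is that of Scgb1a1, which measured 5.83 on 24-hour replicate 1, 6.83 on 7-day replicate 2 and 2.49 to 2.76 elsewhere. Epcam, Cdh1, Krt5, Krt14 and Sftpc lay below the median signal of all genes, so differences in them can be too small. The part of epithelium in the Itgb6 rise was not tested.

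The partners of the alphav chain did not move as one. Itgav itself had means of 8.43 ± 0.12, 8.45 ± 0.20 and 7.88 ± 0.11 (SD, n = 3) and fell by 0.57 in the second step (limma adjusted p = 0.00128). Itgb5, a vitronectin receptor chain, measured 9.01, 9.01 and 8.82 at 24 hours, 8.81, 9.01 and 8.78 at 7 days and 9.24, 9.08 and 9.25 at 10 weeks. It rose by 0.32 ± 0.08 in the second step (limma adjusted p = 0.0101). Itgb3, the vitronectin receptor chain shared with platelets, had means of 5.97 ± 0.04, 6.18 ± 0.31 and 5.50 ± 0.10 (SD, n = 3) and fell by 0.67 in the same step (limma adjusted p = 0.00202). Itgb8, which like Itgb6 activates latent TGF-beta, had means of 5.70 ± 0.24, 5.66 ± 0.34 and 5.18 ± 0.18, and its call was marginal. The second-step difference was -0.49 ± 0.17 (SE; limma adjusted p = 0.0494) with overlapping arrays, and without 7-day replicate 2 it was -0.31 (adjusted p = 0.174). Of the beta chains that pair with alphav, then, Itgb5 and Itgb6 rose in the second step, and Itgb1, Itgb3 and Itgb8 fell.

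Some of these second-step values rest on the 7-day arrays that carried fat transcripts. Of 7 fat markers measured, the summed signal was 8.48, 11.84 and 10.07 on 7-day replicates 1, 2 and 3, beside 8.23 to 8.81 on the arrays of the other ages, and liver markers summed to 8.87 on 7-day replicate 2 and to 6.82 to 7.92 elsewhere. Smooth muscle genes also differed between 7-day replicates 1, 2 and 3. Cnn1 measured 6.08, 8.32 and 7.34 there, and Myh11 6.88, 8.42 and 7.45. The mural cell markers Rgs5 and Kcnj8 were instead lowest on replicate 2 among the 7-day arrays. Itga4, Itga6, Itga8, Itga9, Itgav, Itgb3, Itgb8, Lama2 and Lama4 had their highest signal of all 9 arrays on 7-day replicate 2. With 7-day replicate 1 alone standing for its age, Itgav differed by -0.35, Itgb3 by -0.42 and Itgb8 by -0.15. The full fit gave -0.57, -0.67 and -0.49. Lama4, Lama2, Itga9 and Itga6 were still lower, by differences of -1.19, -0.90, -0.51 and -0.40. Itga1, Itga11 and Itgax gave -0.44, 0.53 and 0.29, beside -0.52, 0.59 and 0.37 in the full fit. With 1 array left at 7 days the test loses power, and some differences also changed in size. For calls lost there, loss of power and dependence on the fat transcripts cannot be told apart. The part of the fat, liver or smooth muscle transcripts in these values was not tested beyond this.

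Itga5, which with beta1 forms the classical fibronectin receptor, fell at both steps. It measured 8.40, 8.47 and 8.41 at 24 hours, 8.05, 8.16 and 8.08 at 7 days and 6.67, 6.93 and 6.82 at 10 weeks, with no overlap between ages. The first step was -0.33 ± 0.07 (limma adjusted p = 0.0137) and the second -1.29 ± 0.07, 2.44-fold (adjusted p = 3.26e-07). The small first step fell short without 24-hour replicate 2 (-0.31, limma adjusted p = 0.065), 7-day replicate 1 (-0.31, adjusted p = 0.053) or 7-day replicate 3 (-0.32, adjusted p = 0.0591). It was the one gene of the 37 called lower in both steps, against 2.09% of all genes.

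Itga8, another receptor chain for the RGD sequence, found on mesenchymal and smooth muscle cells, spread widely at 7 days. It measured 7.46, 7.55 and 7.29 at 24 hours, 7.12, 8.87 and 7.75 at 7 days and 5.85, 6.10 and 6.38 at 10 weeks. The 10-week arrays were below all others. The second step was -1.80 ± 0.34 (limma adjusted p = 0.00182), and -1.01 with 7-day replicate 1 alone. Itga2b, the alpha chain of the platelet fibrinogen receptor, completed the RGD-binding chains with means of 4.88, 4.88 and 4.86, and its 10-week arrays ran from 4.63 to 5.24.

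**Figure D3:**
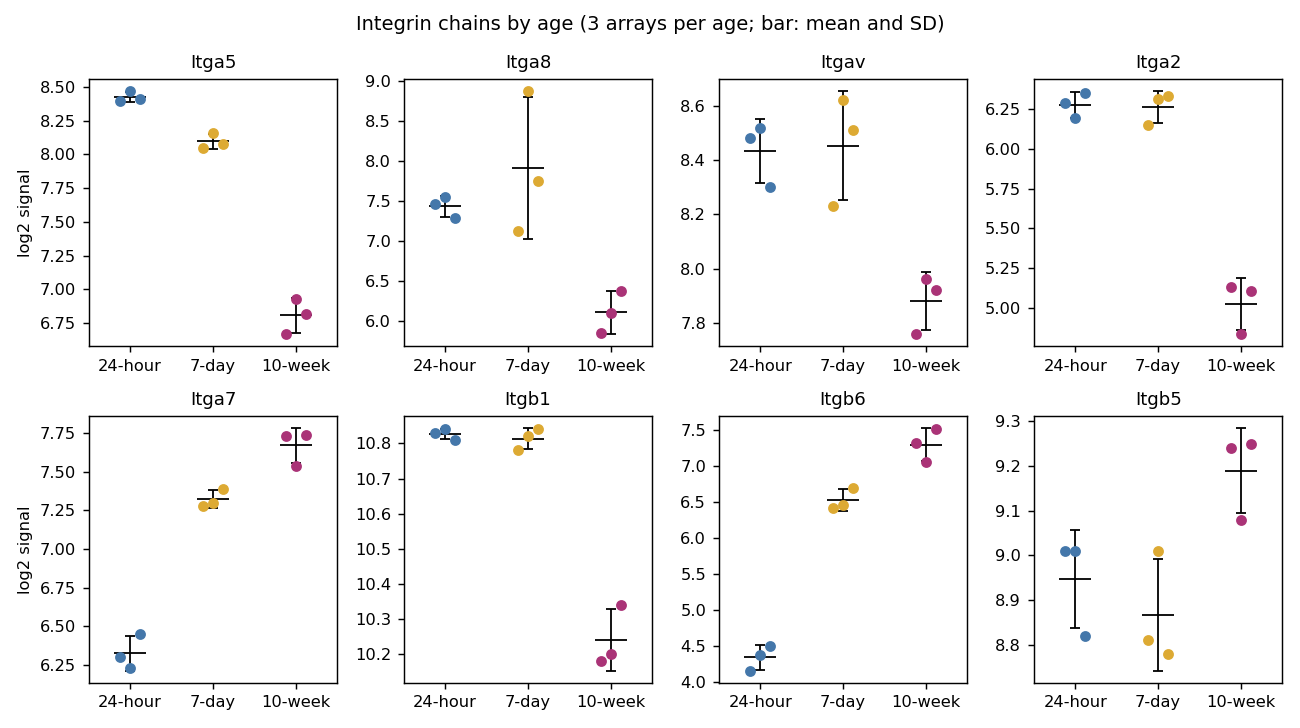
Log2 signal of 8 integrin chains on each array, by age, with the mean and SD of 3 arrays as black bars; the vertical axes differ between genes. Itga7 and Itgb6 rise at each step, Itga5 falls at each step, and 7-day replicate 2 is the high middle point of Itga8.

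Of the 4 collagen-binding alpha chains, Itga2 fell most. Its signals were 6.29, 6.19 and 6.35 at 24 hours, 6.15, 6.31 and 6.33 at 7 days and 5.13, 4.84 and 5.11 at 10 weeks. The young ages overlapped and the 10-week arrays lay apart, with a fall of 2.36-fold, -1.24 ± 0.09 (limma adjusted p = 2.51e-06). Itga1, the collagen receptor chain of smooth muscle, endothelium and fibroblasts, had means of 9.07 ± 0.09, 9.19 ± 0.07 and 8.67 ± 0.19 (SD, n = 3) and fell by 0.52 in the second step (limma adjusted p = 0.00112). Itga11, the fibrillar collagen receptor chain of fibroblasts, rose instead. It measured 4.75, 4.99 and 4.64, then 5.05, 5.04 and 4.89, then 5.48, 5.48 and 5.79, and the second-step rise was 0.59 ± 0.11 (limma adjusted p = 0.00163). In the same step 8 of the 10 fibroblast markers were lower. Itga10, known from cartilage, ranged from 4.69 to 5.07 and was not called.

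Itga9, a receptor chain for tenascin and other ligands, had means of 8.01 ± 0.08, 8.25 ± 0.03 and 7.72 ± 0.11 (SD, n = 3). Its 3 ages did not overlap, the first step of 0.23 ± 0.07 did not pass (SE; limma adjusted p = 0.0591) and the second was -0.53 ± 0.07 (adjusted p = 0.00014). The related chain Itga4, which binds Vcam1 and fibronectin, measured 6.28 on 7-day replicate 2 and 5.35 to 5.65 on the others.

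The leukocyte integrins that rose did so in the second step. Itgb2 is the beta chain that all 4 of the CD11 chains need, and it measured 5.11, 4.92 and 4.90, then 5.07, 5.36 and 5.22, then 5.71, 5.70 and 6.27. Itgam, the alpha chain of the complement receptor of macrophages and neutrophils, had means of 4.92 ± 0.10, 5.01 ± 0.15 and 5.69 ± 0.09 (SD, n = 3), and Itgax, the CD11c chain, of 4.25 ± 0.07, 4.25 ± 0.08 and 4.63 ± 0.12. In all 3 genes the young arrays overlapped and the 10-week arrays lay above them. The second-step rises were 0.68 ± 0.15 for Itgb2, 0.68 ± 0.09 for Itgam and 0.37 ± 0.08 for Itgax (limma adjusted p = 0.00397, 0.00018 and 0.00323). All 3 signals are dim, so the rises can be understated.

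Macrophage markers moved with them. All 10 were higher at 10 weeks than at 7 days, from 0.35 for Fcgr1 to 1.82 for Lyz2, with a median of 0.87, and their summed signal was 10.72 to 10.80 and then 11.79 to 11.91. In the first step 7 of the 10 were already higher, with sums of 10.08 to 10.22 at 24 hours, while Itgb2, Itgam and Itgax gave 0.24, 0.09 and 0.01 and were not called. Neutrophil markers gave 2 higher calls of 9 in the second step, with sums of 7.37 to 7.48 at 7 days and 7.41 to 7.57 at 10 weeks. The dendritic cell list, counted without Itgax, gave 2 higher calls of 6. Over all genes 17.0% were called higher in the second step, and 11.1% of those at or below the median signal, where both of these lists lie. The part of these cells in the integrin rises was not tested. Of the other leukocyte chains, Itgal (T cell and general leukocyte adhesion), Itgad, Itgae (binding E-cadherin), Itgb7 and the beta2-like Itgb2l were called in none of the 3 comparisons, with signals between 3.69 and 6.38.

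**Figure D4:**
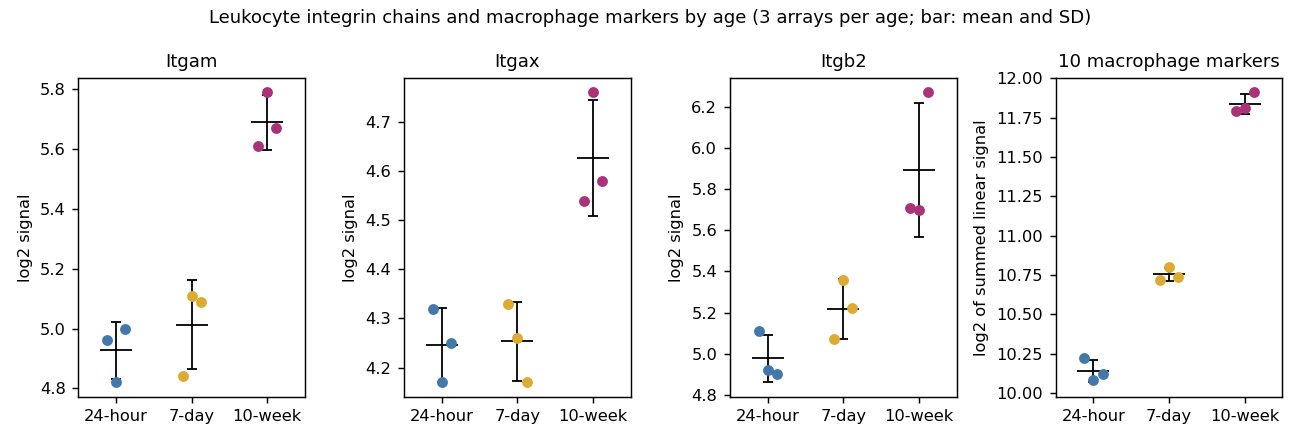
Log2 signal of Itgam, Itgax and Itgb2 on each array, by age, and the log2 of the summed linear signal of 10 macrophage markers, with the mean and SD of 3 arrays as black bars. The 10-week arrays are highest in all 4 panels, and the markers also differ between 24 hours (10.08 to 10.22) and 7 days (10.72 to 10.80).

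In all, 13 of the 37 genes were called in no comparison: Itga2b, Itga4, Itga10, Itgad, Itgae, Itgal, Itgb2l, Itgb4, Itgb7, Lama1, Lama3, Lamb3 and Lamc3. Their signals ran from 3.69 to 6.38, and the largest difference between ages among them was 0.34, for Itga4. Itgb4, the beta chain of hemidesmosomes, ranged from 5.82 to 6.09. Itgad has 2 probe sets, with mean signals of 6.22 and 4.45, and the brighter was used.

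Most other genes of the basement membrane fell in the step in which Lama2, Lama4, Lamb1 and Lamc1 fell. Of 20 measured, 15 were lower in the second step and the other 5 were not called, with a median difference of -0.97, beside 18.9% of all genes lower and a median over all genes of 0.04. Peroxidasin (Pxdn), which crosslinks collagen IV, fell by 2.17 on the log2 scale. The differences of Fras1, an adhesion protein of embryonic basement membranes, the matricellular protein Sparc and nidogen-2 (Nid2), which bridges laminin and collagen IV, were -1.80, -1.64 and -1.63 (limma adjusted p from 2.02e-08 to 6.92e-05). In the first step 5 were higher and 1 lower, led by Col15a1, a collagen of muscle and capillary basement membranes, at 1.22 (limma adjusted p = 2.56e-05) and followed by the Fras1 relative Frem1 at -0.57 and by Pxdn and the endothelial protein Egfl7 at 0.34 each. From 24 hours to 10 weeks 14 were lower and 2 higher, with Fras1 at -2.24, Pxdn at -1.83, Nid2 at -1.73 and Sparc at -1.35. Egfl7 is also one of the endothelial markers.

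Ligands of integrins outside the basement membrane held the largest falls of all 5 lists in the second step. Of 19 measured, 5 were higher and 9 lower in the second step, with a median of -0.13, beside 17.0% and 18.9% of all genes. The difference was -3.26 for tenascin-C (Tnc), -2.91 for fibronectin (Fn1), the ligand of Itga5, -2.45 for periostin (Postn) and -1.32 for thrombospondin-1 (Thbs1) (limma adjusted p = 1.91e-07, 2.37e-07, 5.62e-08 and 0.00459). Vitronectin (Vtn), a ligand of the alphav integrins, rose as Itgb6 did, by 2.03 in the first step and 0.55 in the second (limma adjusted p = 2e-06 and 0.000436). Fn1 had means of 10.66 ± 0.15, 10.45 ± 0.26 and 7.54 ± 0.26 and Vtn of 5.02 ± 0.09, 7.05 ± 0.12 and 7.60 ± 0.11 (SD, n = 3). In the first step 3 ligands were higher and 3 lower, among them the leukocyte ligands Vcam1 at -0.61 and Icam2 at 0.44 and the matricellular protein Ccn1 at 0.51. From 24 hours to 10 weeks the counts were 5 and 9, with Fn1 at -3.12, Tnc at -3.03, Vtn at 2.58 and Postn at -2.11. Postn is also one of the fibroblast markers.

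**Figure D5:**
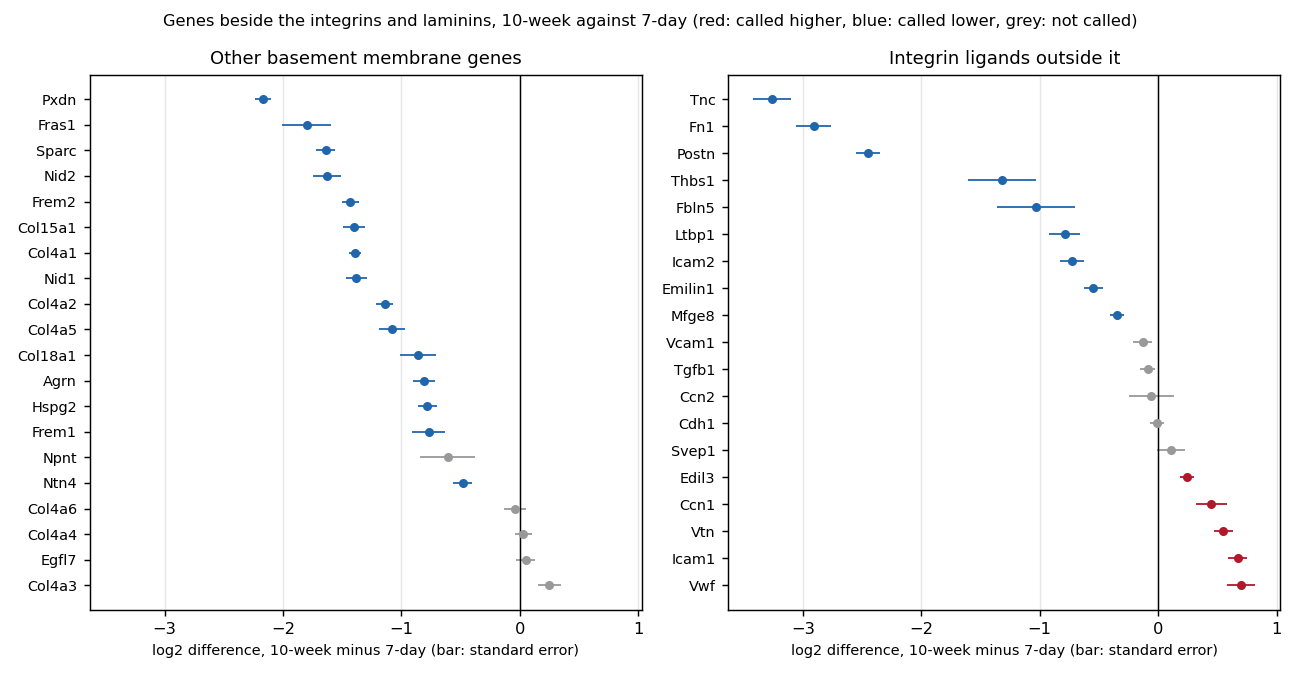
Log2 difference between 7-day and 10-week hearts for 20 other basement membrane genes (left) and 19 integrin ligands outside the basement membrane (right), with the standard error from limma as a bar. Red points were called higher, blue lower and grey not called; 15 on the left and 9 on the right are lower.

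Inside the cell, the adhesion complex of integrins changed in both directions. Of 26 genes measured, 5 were higher and 15 lower in the second step, with a median of -0.27. The shares over all genes were 17.0% higher and 18.9% lower. The actin crosslinkers filamin A (Flna) and alpha-actinin-1 (Actn1) fell by 1.39 and 1.07, Rsu1, a partner of the PINCH proteins, by 0.83, and Nrap, an actin-anchoring protein of muscle, rose by 1.01 (limma adjusted p = 2.96e-05, 0.000197, 1.2e-06 and 8.41e-07). The PINCH proteins themselves parted: Lims2 rose at both steps, from 7.25 ± 0.08 to 7.83 ± 0.08 and 8.46 ± 0.09, while Lims1 had means of 9.52 ± 0.01, 9.61 ± 0.10 and 9.07 ± 0.19 (SD, n = 3), with a second-step fall of 0.55 (limma adjusted p = 0.000604). Vinculin (Vcl) fell by 0.30 in the first step (limma adjusted p = 0.0414) and was 0.99 lower at 10 weeks than at 24 hours. In the first step 2 genes were higher, Lims2 by 0.58 and the talin-binding protein Kank2 by 0.22, and 2 lower, the focal adhesion kinase relative Ptk2b by 0.92 and Vcl. From 24 hours to 10 weeks the counts were again 5 and 15, with Lims2 at 1.21, Flna at -1.13, Actn1 at -1.11 and Vcl at -0.99.

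A list of laminin receptors that are not integrins gave smaller numbers. It also held sarcoglycans, dystrophin (Dmd), utrophin (Utrn), sarcospan (Sspn) and the glycosyltransferases Pomt1, Pomt2 and Pomgnt1. None of these is itself a laminin receptor. Of its 12 genes measured, 3 were higher and 4 lower in the second step, with a median of -0.08. The shares over all genes were 17.0% higher and 18.9% lower, and 22.8% and 32.9% among genes above the median signal. The 3 sarcoglycans, which sit beside dystroglycan in the muscle membrane, rose: Sgca by 1.08, Sgcb by 0.65 and Sgcd by 0.43, while Bcam, a receptor for alpha5 laminins, fell by 0.63 (limma adjusted p = 2.37e-06, 4.92e-06, 0.000457 and 5.2e-05). Bcam thus fell in the step in which Lama5 rose. Sgcb and Sgcd were also higher in the first step, by 0.37 and 0.32, and from 24 hours to 10 weeks the counts were 3 higher and 5 lower, with Sgca at 1.20, Sgcb at 1.02, Bcam at -0.83 and Sgcd at 0.75. Dystroglycan (Dag1), which binds the alpha2 laminin chain, had means of 8.97 ± 0.03, 8.86 ± 0.02 and 8.76 ± 0.10 (SD, n = 3) and was called only over the whole span (-0.21; limma adjusted p = 0.0159).

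The tetraspanins that travel with integrins, and Cd47, gave 2 higher calls of 7 in the first step, Cd9 by 0.49 and the laminin-integrin partner Cd151 by 0.41. In the second, Cd82 was higher by 0.37, and Cd81 and Cd9 were lower by 0.32 and 0.28. Over all genes, 5.27% were called higher in the first step, and 17.0% higher and 18.9% lower in the second. From 24 hours to 10 weeks 3 were higher, Cd47 by 0.45, Cd151 by 0.33 and Cd9 by 0.20, and Cd81 was 0.32 lower (limma adjusted p from 0.000148 to 0.0373).

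Facts of the arrays touch all of these values. The 10 cardiomyocyte markers, which fit the tissue label, had a summed signal of 15.99 to 16.06 on all 9 arrays. Most of them lie near the highest signal of any probe set, 13.58, so differences in them can be too small. The medians of the 9 arrays over all genes differed by at most 0.0755. Centring each array on its median changed the share of higher calls among all called genes from 52.3% to 41.6% in the first step and from 47.3% to 61.3% in the second. Quantile normalization gave 50.2% and 51.8%. All 5 atrial markers were lower in the second step, with sums of 12.32 to 12.80 at 7 days and 8.16, 10.45 and 9.66 on the 10-week arrays, and the part of chamber make-up in the differences between ages was not tested.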

How the data were processed

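The authors deposited 1 table of log2 signals for 35556 probe sets on 9 arrays. MAS5 5.0 is named, per the submitters' processing notes; how probes were summarised and arrays normalized is not stated there. The deposited log values were used unchanged. The platform annotation gave 21789 probe sets exactly 1 gene symbol, 1621 several and 12146 none, and symbols were updated through Entrez identifiers. Each of the 19938 genes was represented by its brightest single-symbol probe set. All 9 arrays were fitted with 1 mean per age in limma 3.58.1 (R 4.3.3; lmFit, and eBayes with an intensity trend), leaving 6 residual degrees of freedom, and p-values were adjusted over all genes by the Benjamini-Hochberg method. The fit was tested on simulated data. SDs are over the 3 arrays of an age, standard errors are those of the fit, and a marker sum is the log2 of summed linear signals.

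Genes called with a difference of at least 1, or in both steps, are given with all 9 values, and others by means or ranges. Of each of 5 pathway lists, up to 4 called genes with the largest differences per comparison are named. Further genes given in full or by name were chosen after their values were seen, and the genes followed and all lists were chosen with earlier results of these data known. Alternatives were other normalizations, filters, variance models, probe set choices, array weights, a replicate block and leaving arrays out.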

Additional observations from a re-analysis of the deposited data

How the results depend on the processing

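Of 72 differences of the 24 genes called at least once, 52 were called. Of these, 40 passed under each of the 20 alternatives that gave a value, 12 were lost under at least 1, and 0 changed sign. The filter for genes above the median signal gave values for 27 of the 37 genes. Among the 59 uncalled differences of all 37 genes, 7 passed under at least 1 alternative, among them both 10-week comparisons of Itga2b, which passed only without 10-week replicate 1 (-0.20). In the first step the count of genes called higher went from 3 to 5 with array weights and to 5 with only the 6 arrays compared. The count called lower went from 1 to 3 with array weights, 2 with only genes above the median signal, 2 with only the 6 arrays compared and 0 without 7-day replicates 2 and 3. Leaving out 1 array gave 0 to 2 (0 without 24-hour replicate 2 or 7-day replicate 1 or 3, and 2 without 7-day replicate 2 or 10-week replicate 3). Counts of the other comparisons stayed within 1.5 times. Itgb8 was lost under 13 alternatives in the second step and under 6 from 24 hours to 10 weeks. From 24 hours to 10 weeks Itgb5 (0.24) was lost under 4 (0.18 to 0.27), each the loss of 1 array, and Itgb3 (-0.46) without 10-week replicate 3 (-0.41) or 24-hour replicate 1 (-0.44). Itga1, Itga7, Itga11, Itgav and Itgax lost second-step calls only with 7-day replicate 1 alone at its age, where the test loses power. The causes were not tested. Same-numbered arrays of different ages had deviations correlated from -0.174 to 0.133. This gave no sign that the numbers pair the samples, but it cannot exclude a shared batch. With the replicate number as a block, the replicate block gave 4 higher and 1 lower in the first step and 9 and 14 in each of the other comparisons. Without detection calls, nothing can be said of whether the dimmest chains were present.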
